A study of Mus musculus with 2 samples.

Results

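The mRNAs described here encode the nuclear-encoded subunits of respiratory complex I and the assembly factors that share their Nduf prefix. They were chosen by name, as every accession for a coding mRNA (NM) on the mouse array whose gene name starts with Nduf. There were 41 such mRNAs of 18754 coding accessions on the array, and 55 probes of 60 bases, with 1 spot each, reported on them. They comprised 13 Ndufa, 10 Ndufb, 2 Ndufc, 8 Ndufs and 3 Ndufv genes, Ndufab1, and 4 assembly factors (Ndufaf1 to Ndufaf4). All 41 names are still the current symbols.

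The cells were NIH3T3, an established line of mouse fibroblasts, grown in medium with 10% serum. One group was left untreated (control), and the other received 10 µM thapsigargin for 3 h. Thapsigargin blocks the calcium pump of the endoplasmic reticulum and so causes stress in that organelle. Per the study's methods, cycloheximide was given to both groups shortly before lysis to hold ribosomes on the mRNA. The Cy3 channel carried polysomal RNA (P) and the Cy5 channel the RNA of free particles and monosomes (FM). Each condition was read on 1 two-colour array, with the RNA of 3 preparations mixed. The comparison of conditions has no replicate check and allows no test, and a difference is called here only by its size, at 1 or more on the log2 scale.

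Complex I, the NADH:ubiquinone oxidoreductase, is the entry point for electrons from NADH into the respiratory chain of mitochondria, and it pumps protons across the inner membrane. Its core subunits carry out the reaction: those of the N module oxidise NADH, those of the Q module reduce ubiquinone, and a set encoded by mitochondrial DNA forms the proton-pumping membrane arm. The accessory subunits surround this core, and assembly factors join the modules without staying in the finished enzyme. The nuclear-encoded proteins are made on cytosolic ribosomes and imported, so the polysome association of their mRNAs concerns the cytosolic supply of the complex.

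Polysome association is given as log2 P/FM, that is, the P signal over the FM signal of a probe after background subtraction, in log2 units. Abundance is given as A, the log2 signal averaged over the P and FM channels. All 41 Nduf mRNAs had A above 4.5 on both arrays, the level used as a filter, which 10033 of the 18743 usable coding mRNAs passed. Of the 55 probes, 54 were well above background in each channel on each array, and none was saturated. Of these probes 16 cross an intron, and 9 (of Ndufab1, Ndufb4, Ndufb5, Ndufc2, Ndufs3, Ndufs5 and Ndufs6) also list a predicted or noncoding accession, whose RNA they could read. Over the probes for transcripts on the whole array, 42.5% to 46.3% of spots were well above background. All 7 markers of fibroblasts passed the filter, and of 7 genes of other cell types only Cd3e did. The stress genes Hspa5, Ddit3, Atf4 and Ppp1r15a had A higher with thapsigargin by 0.79 to 3.71. Between the 10 spots of one probe the median SD of the change in log2 P/FM was 0.10 over 118 probes. Between different probes of one coding mRNA it was 0.32 over 3438 mRNAs. Among the 10 Nduf mRNAs with more than 1 probe it was 0.04, although probes such as those of Ndufs6 overlap in sequence. These spreads come from the arrays alone and say nothing of how far preparations differ.

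On the unscaled arrays most Nduf mRNAs gave more signal in polysomes than outside them in control cells, and nearly all gave less with thapsigargin. Scaled to the spike-in probes, which read added control RNAs, the median stayed above 0 in both conditions, at 2.02 in control and 1.61 with thapsigargin. The study's methods do not state in what amounts these RNAs were added to P and FM, so this scaling is given as an alternative only. The unscaled values follow. In control cells log2 P/FM was above 0 for 38 of 41, against 63.5% of all coding mRNAs that passed the filter, with a median of 1.61 against 0.34. With thapsigargin it was above 0 for 3 of 41, against 37.4% of all, and the median was -1.35 against -0.29. The value went from above 0 to below 0 for 35 Nduf mRNAs, against 38.6% of all.

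The change, thapsigargin minus control, had a median of -2.79 for the Nduf mRNAs and -0.71 for all coding mRNAs, and lay between -4.64 and 0.37. Log2 P/FM was lower by 1 or more for 37 of 41, against 40.8% of all, and lower by 2 or more for 31, against 13.7%. It was higher by 1 or more for none, against 9.9% of all. The zero point of the change depends on how the arrays are scaled, and per the study's methods the proportion of P to FM RNA used for labelling differed between the conditions. Scaled to the 10 spike-in probes, the median change was 1.84 for all coding mRNAs and -0.24 for the Nduf mRNAs, 17 of which were then above 0. The Nduf median minus that of all coding mRNAs was -2.08 in both scalings, since a shift of a whole array cancels in this difference. Changes below are those of the unscaled arrays, beside -0.71 for all coding mRNAs.

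**Figure D1:**
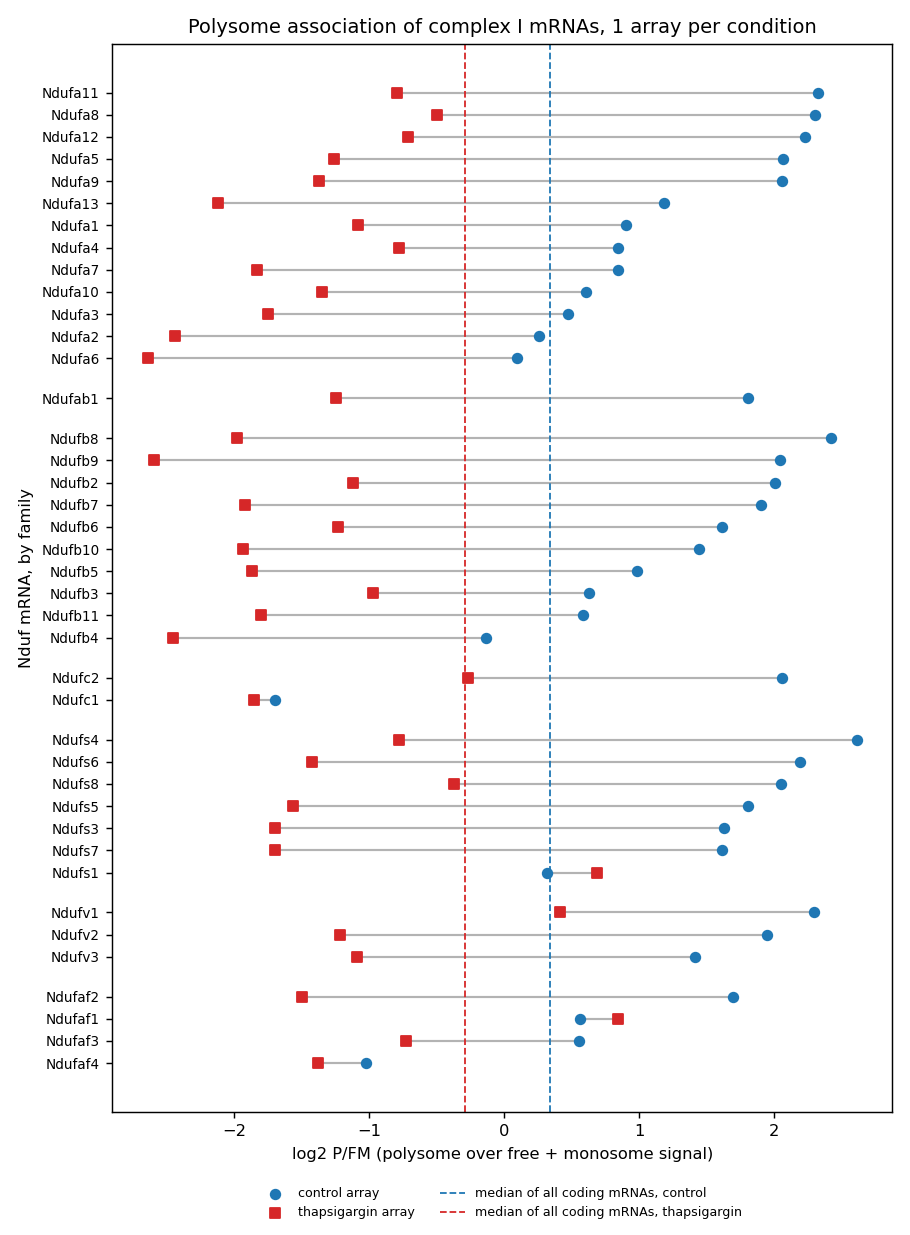
Log2 P/FM (x axis, no unit) of 40 of the 41 Nduf mRNAs on the control array (blue circles) and the thapsigargin array (red squares), grouped by family and ordered within each by the control value. Dashed lines mark the medians of all coding mRNAs, 0.34 and -0.29. There is 1 array per condition and so no error bar. All mRNAs plotted lie further left with thapsigargin except Ndufs1 and Ndufaf1, which lie further right. Scaling to the spike-in probes would leave 24 of all 41 further left and 17 further right.

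The N module holds the FMN site and the first iron-sulphur clusters, and its 3 core mRNAs differed widely. Ndufv1 (NM_133666), which binds NADH and FMN, had a P signal of 7774 and an FM signal of 1586 in control cells, and 5846 and 4391 with thapsigargin. Its log2 P/FM went from 2.29 to 0.41, a change of -1.88, so that its signal in polysomes still exceeded that outside them. After loess within each array the change of Ndufv1 was -0.32, and with the scanner software's processed signals -0.30. Ndufv2, which carries an iron-sulphur cluster, went from 1.95 to -1.22, a change of -3.17.

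Ndufs1 (NM_145518), the largest iron-sulphur protein of the complex, stood apart in its P channel. Its P signal was 584 in control and 2450 with thapsigargin, and its FM signal 468 and 1522. Log2 P/FM was thus 0.32 and 0.69, and the difference of 0.37 did not reach the size used for a call. Scaled to the spike-in probes this difference was 2.92. On the unscaled arrays the A of Ndufs1 was higher by 1.88, and it was the only one of the 41 with A higher by 1 or more, against 11.7% of all coding mRNAs. The value rests on 1 probe, whose Start, the position in the transcript at which it begins, is base 2411. The change in A went along with Start. Its Pearson's r with log2 Start was 0.47 over 54 Nduf probes and 0.31 over 14657 probes of coding mRNAs. The probe of Ndufs1 lies at chr1:63190360-63190419 (mm9, minus strand), and its first 30 bases are shown because this mRNA went its own way.
Ndufs1: ccgtccatatgctgagacatctaacaggga

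The Q module links the N module to the membrane arm and carries the ubiquinone site. The core mRNAs of this module that are described here were lower by 2 or more. Ndufs3, a subunit of the early Q module, went from 1.63 to -1.70, a change of -3.33. Ndufs7, which carries the last iron-sulphur cluster before ubiquinone, went from 1.61 to -1.69, a change of -3.31. Ndufs8, a ferredoxin-like subunit, went from 2.05 to -0.37, a change of -2.42. It had the lowest change in A of the 41, -0.40. Over the 7 nuclear core mRNAs the median change was -2.42, and over the 30 accessory mRNAs -2.85. Their ranges, -3.33 to 0.37 and -4.64 to -0.15, overlapped. After loess within each array the order of the medians was reversed, at -1.61 (core) and -1.46 (accessory). The core mRNAs were also dimmer, with a median of A over both arrays of 10.0, against 12.1 for the accessory ones.

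The Ndufb family, accessory subunits of the membrane arm, held the single mRNAs with the lowest changes. On the unscaled arrays all 10 Ndufb mRNAs were lower by 1 or more and 9 by 2 or more, against 40.8% and 13.7% of all coding mRNAs. The Ndufb median was -2.99, while the lowest family median was that of Ndufs, -3.32, and that of Ndufv was -2.50. After loess within each array these medians were -1.54 (Ndufb), -1.64 (Ndufs) and -1.87 (Ndufv). Ndufb9 (NM_023172), a small LYR-motif subunit at the distal end of the arm, had a P signal of 18271 in control and 4271 with thapsigargin, while its FM signal was 4441 and 25803. Log2 P/FM went from 2.04 to -2.59, a change of -4.64, or 24.9 times lower P/FM. It ranked 1 among all 10033 coding mRNAs from the lowest change up. After loess within each array it ranked 11, with a change of -2.89. It ranked 28 with the scanner software's processed signals, among the 12335 mRNAs that then passed the filter. With the log ratios of that software it ranked 14 among 10033. Without the filter on A it ranked 100, since dim mRNAs then entered. Ndufb8 (NM_026061), another subunit of that end of the arm, had P signals of 33338 and 8285 and FM signals of 6230 and 32617. Its log2 P/FM went from 2.42, the highest control value of the family, to -1.98, a change of -4.40, which ranked 4. It ranked 41 after loess, with a change of -2.53, 50 with the processed signals, 25 with the log ratios and 137 without the filter on A. For both, a P channel brighter in control became an FM channel brighter with thapsigargin. The probe of Ndufb9 lies at chr15:58770972-58771031 (mm9, plus strand) and begins at base 578. That of Ndufb8 spans an intron at chr19:44624855-44627199 (mm9, minus strand) and begins at base 470. Their first 30 bases are shown as the probes behind the lowest changes.
Ndufb9: ctcactgttcatgcttgcaagtgagagttt
Ndufb8: taccagcctgtgggtccgaagcagtaccct

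At the other end of the family, Ndufb3 went from 0.63 to -0.97, a change of -1.60, but its change was -0.22 after loess and with the processed signals. Ndufb4 was one of 3 Nduf mRNAs below 0 in control cells, at -0.13, and reached -2.45, a change of -2.32, against -0.75 after loess and -0.79 with the processed signals. The other Ndufb mRNAs lay between -3.81 (Ndufb7) and -2.39 (Ndufb11). The family thus differed within itself by more than the spread between probes of one mRNA, in size and not in direction on the unscaled arrays.

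On the unscaled arrays all 13 Ndufa mRNAs, accessory subunits spread over the whole enzyme, were lower by 1 or more, against 40.8% of all coding mRNAs, with a median of -2.73 and a narrower range than Ndufb. Ndufa9, a subunit of the Q module related to short-chain dehydrogenases, had P signals of 3279 and 1614 and FM signals of 789 and 4168. Its log2 P/FM went from 2.05 to -1.37, the lowest change of the family at -3.42. Ndufa11, a membrane subunit, had the highest control value of the family, 2.32, and went to -0.79. Its 2 probes changed by -3.11 and -3.12. Ndufa6, another LYR-motif protein, had the lowest control value, 0.09, and went to -2.64, the lowest value of any Nduf mRNA with thapsigargin. Ndufa4, now also assigned to cytochrome c oxidase, had the smallest fall, from 0.85 to -0.78, a change of -1.63. After loess its change was -0.015, and with the processed signals -0.09. Ndufab1, the mitochondrial acyl carrier protein, which also serves fatty acid synthesis, went from 1.81 to -1.25, a change of -3.05.

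The accessory Ndufs mRNAs (Ndufs4, Ndufs5 and Ndufs6) had changes from -3.61 to -3.37. Ndufs4 (NM_010887), an accessory subunit of the N module whose loss causes a Leigh-like disease, had P signals of 3293 and 1364 and FM signals of 539 and 2337. It had the highest control log2 P/FM of all 41, 2.61, and reached -0.78, a change of -3.39. Ndufs6 (NM_010888), a zinc-binding subunit, went from 2.19 to -1.42, and its change of -3.61 was the lowest in the family. Its 3 probes changed by -3.63, -3.60 and -3.61. Ndufs5 changed by -3.37. Ndufv3, a small subunit of the N module, went from 1.41 to -1.09, but its 3 probes disagreed. They begin at bases 203, 707 and 1164 and changed by -3.46, -1.74 and -2.31, and the brightest of them gave the lowest change.

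The 2 Ndufc mRNAs, subunits of the membrane arm, differed from each other in both conditions. Ndufc2 went from 2.06 to -0.27, a change of -2.33, but its change was -0.75 after loess and with the processed signals. Ndufc1 (NM_025523) was already mostly outside polysomes in control cells. Its probe at chr3:51211298-51212089 (mm9, minus strand, across an intron) gave P signals of 1561 and 1639 and FM signals of 4479 and 5295. Its probe at chr3:51209408-51209467 gave P signals of 3201 and 3428 and FM signals of 11765 and 13809. Log2 P/FM, averaged over both, was -1.70 in control and -1.85 with thapsigargin, and the probes differed from each other in the change by less than 0.1. No other Nduf mRNA had a control value as low. Both probes are shown, since they read different parts of the mRNA and gave the same pattern.
Ndufc1, first probe: cctcggttttcatgtggatttatctcatcc
Ndufc1, second probe: gcgaatatgagtcagtcaacacgttttgca

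The mRNAs of the 4 assembly factors had changes from -3.19 to 0.28. Ndufaf1 (NM_027175), which acts in the assembly of the membrane arm, had P signals of 164 and 258 and FM signals of 111 and 144. Its log2 P/FM was 0.56 in control and 0.84 with thapsigargin. Ndufaf2, a relative of Ndufa12 that joins a late intermediate, went from 1.69 to -1.50, a change of -3.19. Ndufaf3, a factor of the Q module, went from 0.56 to -0.73, with signals between 18.2 and 30.2. Its FM signal in control was not well above background, so the control ratio is only a bound. Ndufaf4, the partner of Ndufaf3, was below 0 in both conditions, at -1.02 and -1.38. Its probes beginning at bases 77 and 677 changed by -0.92 and -1.22, while the one at base 3514, not well above background in P on either array, changed by 1.07. The median change of the 4 was -0.82, beside -0.71 for all coding mRNAs. It rests in part on the bound of Ndufaf3 and the dim probe of Ndufaf4, and was -0.047 with the normexp background, -0.36 with A above 5.5 and -1.45 with A above 7.

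Other assembly factors carry names outside the Nduf series or had other names on the array. All 13 of a list of them passed the filter, 7 were lower by 1 or more and 3 by 2 or more, against 40.8% and 13.7% of all coding mRNAs, and the median change was -1.07. These were dim as well, with a median of A over both arrays of 7.39. Tmem126b, part of the assembly complex that holds Ndufaf1, changed by -2.80, and Nubpl, which delivers iron-sulphur clusters, by -2.62. Ndufaf6 changed by -2.28. Acad9 and Tmem186, which act in the same complex as Tmem126b, had values of -0.49 and 0.32, and Ecsit, a further partner there, changed by -1.39. Tmem126b had the lowest and Tmem186 the highest value of this list.

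Each channel was also examined by itself. The P signal was lower and the FM signal higher with thapsigargin for 37 of the 41 Nduf mRNAs, against 44.5% of all coding mRNAs. The FM signal was higher for all 41 on the unscaled arrays, against 86.6% of all coding mRNAs. The median change of log2 P was -1.20 for the Nduf mRNAs and 0.02 for all, and that of log2 FM 1.62 and 0.72. Scaled to the spike-in probes, the median change of log2 P of the Nduf mRNAs turned to 0.33. The exceptions in P were Ndufs1 at 2.07, Ndufaf1 at 0.66, Ndufc1 at 0.09 and Ndufaf4 at 0.00. A changed little: its median change was 0.19 against 0.37 for all coding mRNAs, and 1 of 41 mRNAs was higher by 1 or more and none lower by 1 or more, against 11.7% and 0.698% of all. RNA per cell was not measured. The RNA labelled was set to 300 ng in total for each array, so the signals show neither the number of cells nor the RNA per cell.

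**Figure D2:**
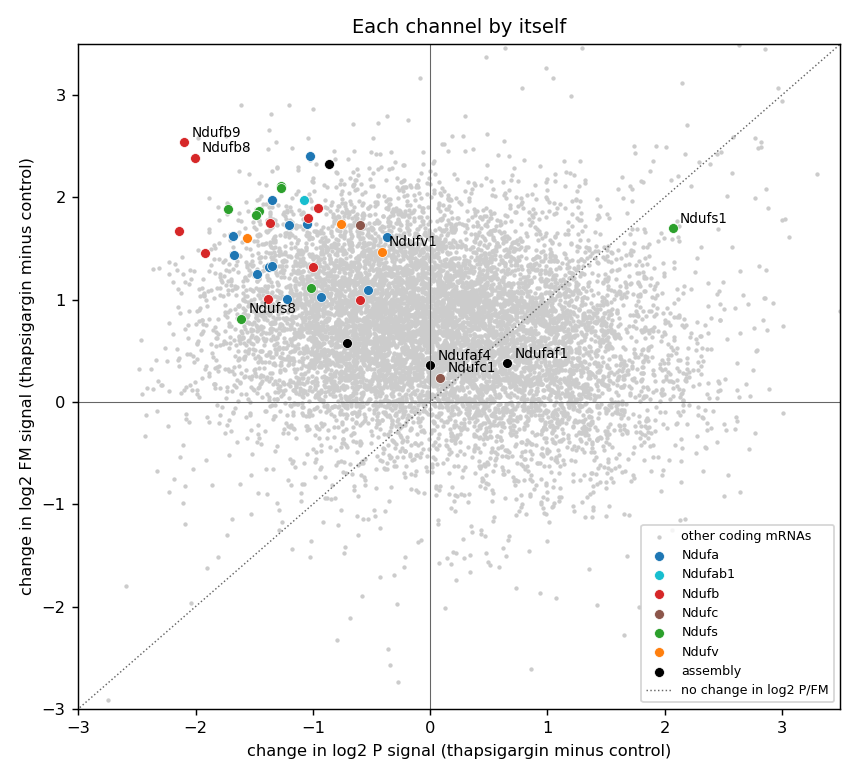
Change in log2 P signal (x axis) against change in log2 FM signal (y axis), thapsigargin minus control on the unscaled arrays, for the Nduf mRNAs, coloured by family, and for the other coding mRNAs (grey). The dotted line marks equal change in both channels, and 22 coding mRNAs lie outside the axes. The Nduf mRNAs sit in the upper left with 37 of 41 at P below 0 and FM above 0, and Ndufs1 sits at 2.07 and 1.70. Scaling to the spike-in probes moves all points along both axes and the Nduf median of P to 0.33.

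Brightness and probe position both went along with the change over all coding mRNAs, so the Nduf mRNAs were set beside mRNAs of like values. Over 10033 coding mRNAs the change had a Pearson's r of -0.39 with the mean A of both arrays, and over the 41 Nduf mRNAs r was -0.52 and Spearman's rho -0.42. These points share the arrays and their dyes, and the values are descriptions across mRNAs. Within bins of mean A with a width of 2 in the middle of the range, 36 of 41 Nduf mRNAs lay below the median of the other mRNAs of their bin, with a median difference of -1.17. Between a mean A of 9 and 11 the median change was -3.08 for 10 Nduf mRNAs and -1.25 for 1965 others. Above 13 it was -3.37 for 9 and -1.94 for 246. The 5 that did not lie below their bin were Ndufs1, Ndufc1, Ndufaf1, Ndufa4 and Ndufb3.

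The probe Start gives the least length a transcript can have, and for short mRNAs it is low. For the Nduf probes it ran from base 36 to 3514 with a median of 410. Over 14657 probes of coding mRNAs the change had an r of 0.48 with log2 Start, and over 54 Nduf probes r was 0.15 and rho 0.10. Without the probes of Ndufs1 and Ndufv1, the only ones that begin after base 1200 and passed the filter, r was 0.02. For Start up to 300 the median change was -2.81 for 18 Nduf probes and -1.36 for 540 others. Between 300 and 600 it was -3.03 for 19 and -1.36 for 1316, and between 600 and 1200 it was -2.78 for 15 and -1.37 for 2757. Of the other probes, 61.6% to 63.5% were lower by 1 or more in these 3 ranges, against 33.3% beyond base 1200. In the probes with Start up to 1200 and mean A above 9, the median was -3.001 for 45 Nduf probes and -1.85 for 1651 others, and 40 of the 45 lay below the latter.

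**Figure D3:**
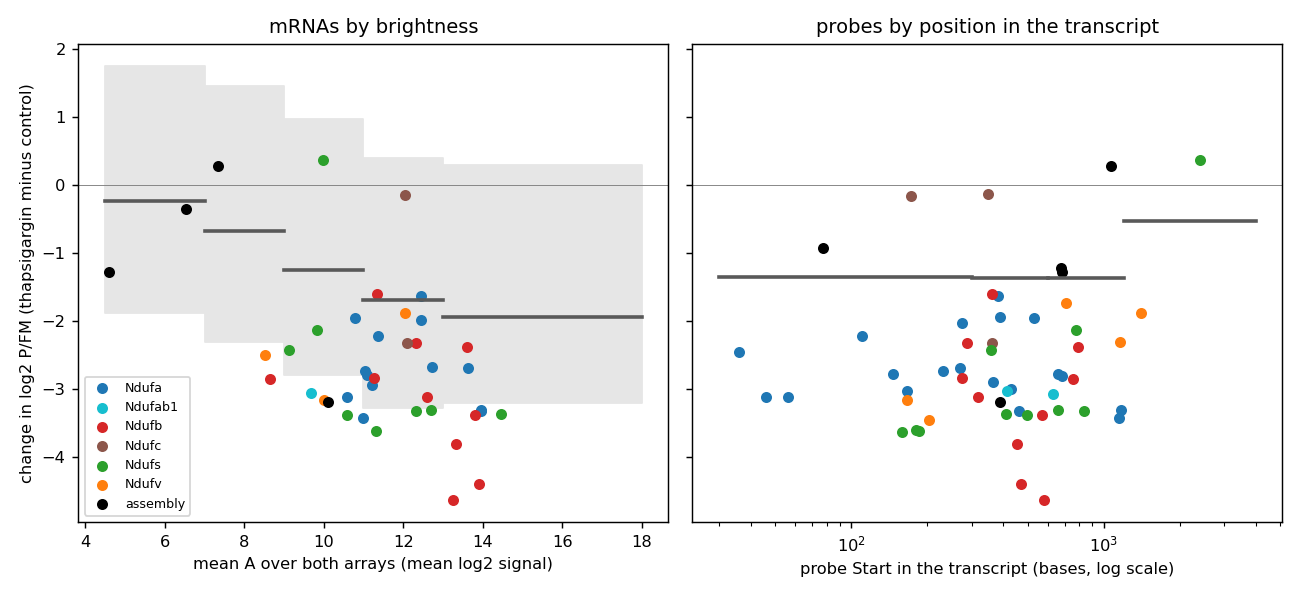
Change in log2 P/FM (y axis, thapsigargin minus control on the unscaled arrays) of Nduf mRNAs against mean A (left) and of Nduf probes against probe Start in bases on a log scale (right), coloured by family. Dark bars mark the median of the other coding mRNAs or probes in each range, and the grey band at left spans their 5th to 95th percentile. At left 36 of 41 points lie below the bars, and at right the 2 probes beyond base 1200 are those of Ndufv1 at -1.88 and Ndufs1 at 0.37.

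The mRNAs of respiratory complexes II to V and of mitochondrial ribosomal proteins were the lists most like the Nduf mRNAs in function. For complexes II to V, 43 of 47 passed the filter, 38 were lower by 1 or more and the median change was -2.02. This list was drawn by gene name and also took in Atp5sl, now Dmac2, with a change of -0.78. Dmac2 is counted above among the other assembly factors of complex I as well. For mitochondrial ribosomal proteins all 77 passed, 64 were lower by 1 or more and the median was -2.19. Of all coding mRNAs 40.8% were lower by 1 or more. Outside the Nduf set the share was 58.6% with mean A between 9 and 11. It was 75.7% between 11 and 13 and 80.5% above 13. The median of mean A was 12.6 for complexes II to V and 9.74 for mitochondrial ribosomal proteins, against 11.3 for the Nduf mRNAs. In control cells their medians were 0.93 and 1.24, against 1.61 for the Nduf mRNAs. The lists were placed side by side without a test, and their ranges, -3.78 to 1.70 and -4.52 to 0.39, overlapped that of the Nduf mRNAs.

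The first bases of the transcripts were read for an element known from mitochondrial genes. TISU, the translation initiator of short 5′ leaders, holds a start codon close to the cap and is also a site for the factor YY1. RefSeq windows of 250 bases before and 50 after the transcript start (GRCm38.p6) were at hand for 37 of the 41 genes. The letters AAGATGGCG, part of that element, stood in the sense strand within the 50 bases after the start in 5 of the 37 genes (13.5%). The share was 0.762% of 27025 genes with a window and 2.195% of the 7881 whose mRNA passed the filter. The overlapping letters ATGGCGGC stood there in 5 genes (13.5%), 4 of them the same, against 1.103% of all and 3.198% of those whose mRNA passed the filter. On either strand of the whole window the shares were 13.5% and 16.2% of the Nduf genes, against 1.64% and 2.605% of all and 4.02% and 6.46% of those whose mRNA passed the filter. The stretches that hold the first motif are shown with its letters in capitals, since 4 of these 5 mRNAs were among the lower changes and the other was Ndufc1. In order they lie at chr6:126849098-126849127, chr3:51408916-51408945, chr13:114388045-114388071 and chr13:73328433-73328461 on the minus strand and chr10:80249461-80249490 on the plus strand.
Ndufa9: gcattgtgggagAAGATGGCGgccgccgtc
Ndufc1: agcctgcggaacAAGATGGCGccgtccgta
Ndufs4: tttgcctacaggAAGATGGCGgcggtc
Ndufs6: agggtcaccggcAAGATGGCGgcggtgct
Ndufs7: aaggccgaggccAAGATGGCGgcgctggcg

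The motif began 22 to 35 bases after the annotated start. The changes of Ndufa9, Ndufs4, Ndufs6 and Ndufs7 were -3.42, -3.39, -3.61 and -3.31, and that of Ndufc1 was -0.15. The 32 Nduf mRNAs with a window and no such letters had a median of -2.76. Over all detected mRNAs, the 174 with the motif had a median change of -1.02 and 51.1% were lower by 1 or more, against -0.72 and 40.9% of the 7890 without it. The motif is a match of letters, and whether its ATG is the start codon in these cells was not tested.

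**Figure D4:**
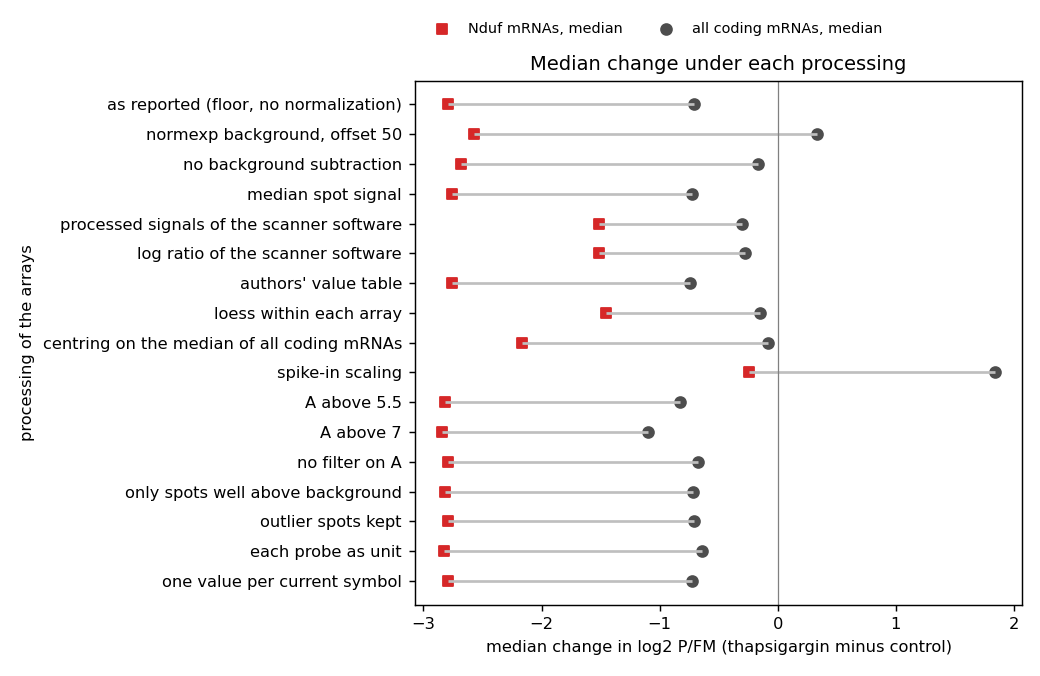
Median change in log2 P/FM (x axis, thapsigargin minus control) of the Nduf mRNAs (red squares) and of all coding mRNAs (grey circles) under each processing of the arrays (y axis). The Nduf median lies to the left of the median of all coding mRNAs in every setting plotted. The difference runs from -1.21 with the processed signals of the scanner software to -2.91 with normexp. With normexp all 18743 usable coding mRNAs passed the filter and were compared, against 10033 in the setting as reported, and their median change was 0.33. The Nduf median comes nearest to 0 with spike-in scaling, at -0.24.

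The median for the Nduf mRNAs was below that for all coding mRNAs in each of the settings plotted, and the difference was -1.21 with the processed signals, -1.30 after loess and -2.91 with normexp. The normexp value compares with all 18743 usable coding mRNAs, since all then passed the filter. Ndufc1 was at -0.15 on the unscaled arrays, 1.37 after loess and 1.33 with the processed signals. Ndufs1 was at 1.40 and 1.51 in the last 2 of those settings.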

How the data were processed

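Per the labels, P and FM RNA were labelled from equal volumes, with 300 ng of RNA in total, while the methods state that each condition's own proportion of P to FM RNA was retained at labelling and that the labelled products were hybridised in equal volumes. The authors deposited spot and background intensity values from Agilent Feature Extraction 10.7.1, the processed intensity values and log10 ratios of that software, and their own table of log2 ratios. Both arrays were on 1 slide and read in 1 scan. The mean signal of each spot less its median background, floored at 0.5, was used, as in the study for mouse. No normalization was applied. The 295 spots flagged as outliers were left out. Probes of one accession were averaged, and mRNAs with A above 4.5 on both arrays were kept. Genes were named by rule: the 7 core subunits, the extremes of each family, and mRNAs with discordant or dim probes or a control value below 0. Further names were chosen after their values were seen, and 1 mRNA of the set is counted but not reported by itself here. The members, lists and motifs were chosen with earlier results of these data known. Probe positions are on mm9, as deposited. Python 3.11.15 and limma 3.58.1 were used. Of the steps, only the averaging of spots and probes was tested on simulated data. Precision is limited by having 1 array per condition, and p-values were not computed.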

Additional observations from a re-analysis of the deposited data

How the results depend on the processing

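No paired analysis was possible because each condition has 1 array, and leaving out a replicate was impossible for the same reason. The relation to protein length was not run, since protein sequences were not used here. A value was taken as unmoved within 0.32, the median SD between probes of one mRNA. The difference in change between Nduf and other mRNAs of like mean A stayed between -1.05 and -1.40 in all 16 alternatives it was computed for. It was a median difference within bins of mean A in all but 1 of them. That one, the probes with Start up to 1200 and mean A above 9, was chosen after seeing the data. It used no bins, and was the median of the Nduf probes minus that of the other probes. The cause of the movements below was not tested, except that the scalings shift whole arrays by construction.

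Scaling to the spike-in probes took -2.55 off the change. The Nduf medians became 2.02 in control, 1.61 with thapsigargin and -0.24 for the change, with 0.33 for P, 0.60 for FM and 4 mRNAs lower by 1 or more. The family medians became -0.18 (Ndufa), -0.44 (Ndufb), 1.31 (Ndufc), -0.77 (Ndufs), 0.049 (Ndufv) and 1.73 (assembly), with 0.13 for core subunits, -0.30 for accessory ones, 1.48 for other assembly factors, 0.53 for complexes II to V and 0.36 for mitochondrial ribosomal proteins. Of the named mRNAs that were lower by 1 or more, Ndufa4 turned to 0.92, Ndufaf3 to 1.27, Ndufb3 to 0.95, Ndufb4 to 0.23, Ndufc2 to 0.22, Ndufs8 to 0.13, Ndufv1 to 0.67 and Ndufv3 to 0.049. Ndufs1 was then at 2.92, Ndufaf1 at 2.83, Ndufc1 at 2.40 and Ndufaf4 at 2.19. In this scaling 5 Nduf mRNAs were higher by 1 or more.

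After loess the Nduf medians were 0.81 in control, -0.85 with thapsigargin, -1.45 for the change, -0.51 for P and 0.85 for FM. The changes were -1.43 (Ndufa), -1.54 (Ndufb), 0.31 (Ndufc), -1.64 (Ndufs), -1.87 (Ndufv), -0.45 (assembly), -1.61 (core), -1.46 (accessory), -0.44 (other assembly factors), -0.46 (complexes II to V) and -1.19 (mitochondrial ribosomal proteins). The scanner software's own processed signals and log ratios, which are dye-normalized, gave 1.14, -0.75 and -1.51 for the Nduf mRNAs, and the processed signals -0.21 for A and 0.58 for FM. Both gave -1.42 (Ndufa), -1.94 (Ndufb), 0.29 (Ndufc), -1.82 (Ndufs), -2.02 (Ndufv), -1.51 (core), -1.64 (accessory), -0.64 (other assembly factors), -1.09 (complexes II to V) and -1.31 (mitochondrial ribosomal proteins).

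Centring on the median of all coding mRNAs gave 1.27 in control, -2.16 for the change, -0.29 for A and 0.82 for FM. The changes were -2.10 (Ndufa), -2.36 (Ndufb), -0.61 (Ndufc), -2.69 (Ndufs), -1.87 (Ndufv), -0.19 (assembly), -1.79 (core), -2.22 (accessory), -0.44 (other assembly factors), -1.40 (complexes II to V) and -1.56 (mitochondrial ribosomal proteins). Normexp, which lifted all mRNAs over the filter on A, gave 1.22 in control, 1.27 for FM, -1.70 (Ndufv), -0.047 (assembly), -1.72 (core), -0.23 (other assembly factors) and -1.54 (mitochondrial ribosomal proteins), and turned Ndufaf3 to 0.25. Without background subtraction Ndufv was at -2.17 and assembly at -0.49. Assembly was at -0.36 with A above 5.5, -1.45 with A above 7 and -1.22 with probes as the unit, which put Ndufc at -0.17. Apart from spike-in scaling, the count of Nduf mRNAs lower by 1 or more moved by less than 1.5 times, to as low as 26 after loess.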

Other observations

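Probes for complex I transcripts outside the set of coding accessions were read in the same way. A probe for ND4, a core subunit encoded by mitochondrial DNA and translated inside mitochondria, gave P signals of 369 in control and 533 with thapsigargin and FM signals of 98407 and 55943. Its log2 P/FM was -8.06 and -6.71, against 1.61 and -1.35 for the median of the nuclear-encoded Nduf mRNAs. Of the cDNA clones named Nduf, those named Ndufab1 (AK008788) and Ndufb8 (AK028070) were well above background in both channels on both arrays, and changed by -1.72 and -2.26. Their Nduf mRNAs of the same names changed by -3.05 and -4.40. The other clones were not well above background in both channels on both arrays, and no ratio is given for them.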
